A study of Homo sapiens with 6 samples.

Results

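Histone methylation and acetylation enzymes are described here as 43 genes of the KDM, KMT2, KMT5, SETD, NSD, KAT and PRMT families. They were chosen by symbol from the 63186 gene rows of the count table, and 43 of 43 were found. The choice used no measured value, but earlier results of these data were known when it was made. The libraries come from RBE cells, an established human cell line of intrahepatic cholangiocarcinoma (bile duct cancer that arises inside the liver). The 2 groups were cells transfected with siRNA against CHAF1A (si-CHAF1A, 3 libraries) and cells transfected with control siRNA (si-Ctrl, 3 libraries), both harvested 48 h after transfection. CHAF1A encodes the largest protein of the CAF-1 complex, which deposits histones H3 and H4 on newly copied DNA. All libraries come from 1 cell line. The labels give neither the number of siRNAs used nor their sequences.

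Histone tails carry methyl groups on lysines and arginines and acetyl groups on lysines. Lysine methyltransferases of the SET family each write methyl marks at certain positions, and DOT1L writes them within the histone core. FAD-dependent and JmjC demethylases remove them. Acetyltransferases of the GNAT, MYST and p300/CBP families add acetyl groups, which go with open chromatin, and PRMT enzymes methylate arginine. Newly deposited histones lack most methyl marks of the parental ones, and methyltransferases restore these after replication. Several of the genes (KMT2C, KMT2D, SETD2 and others) are mutated in cancers.

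The libraries held 15643381 to 20918997 counts. CHAF1A itself stood at 11.1, 12.9 and 11.2 CPM (counts relative to the TMM-scaled library size) in the si-CHAF1A libraries, against 51.5, 59.8 and 51.04 CPM in the si-Ctrl libraries, a 4.61-fold fall (edgeR quasi-likelihood test, adjusted p = 2.57e-10). Here and below, higher, lower, rose, fell and passed mean an adjusted p under 0.05 in that test, adjusted over all 15911 genes tested. Biliary epithelial markers were present, with summed levels of 5839, 5319 and 5751 CPM in si-CHAF1A and 4111, 4779 and 4159 CPM in si-Ctrl over 6 genes. Of these, KRT8, KRT18, KRT19 and EPCAM were higher, SOX9 was lower and KRT7 did not pass. None of 5 hepatocyte markers reached the filter on low counts, and their sum stayed under 1 CPM in every library. The 6 fibroblast and endothelial markers summed to 44.2, 21.7 and 23.9 CPM in si-CHAF1A and 12.7, 14.4 and 11.01 CPM in si-Ctrl, with 4 of them tested and 2 higher (PDGFRB and VWF). Of 5 leukocyte markers, ITGAM alone was tested and was higher (25.2 ± 0.181 CPM in si-CHAF1A and 21.01 ± 2.42 CPM in si-Ctrl). The part of these markers in the results below was not tested.

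One library stood apart. On the second principal component (11.2% of the variance) si-Ctrl 2 scored 29.6, while the other controls scored -14.9 and -13.9. Its difference from the other controls followed the GC content of the transcripts: Spearman's rho between the deviation of si-Ctrl 2 from its group and GC content was 0.91 over the 43 enzymes and 0.66 over 12846 genes. A GC trend was also present within the other group. For si-CHAF1A 1 the same rho was 0.59 over the enzymes and 0.34 over the 12846 genes. It was -0.28 and -0.23 for si-CHAF1A 2, and -0.35 and -0.11 for si-CHAF1A 3. All points of such a correlation share 1 library, and the correlations are given as a description. All 15 enzymes with a GC content of 55% or more read higher in si-Ctrl 2 than in the mean of si-Ctrl 1 and 3, by 0.06 to 0.41 on the log2 scale (median 0.26). Of the 28 enzymes below 55% GC, 10 did so (median -0.04). The counts over all 43 enzymes, over their relatives and over all complex partners are given with and without si-Ctrl 2.

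**Figure D1:**
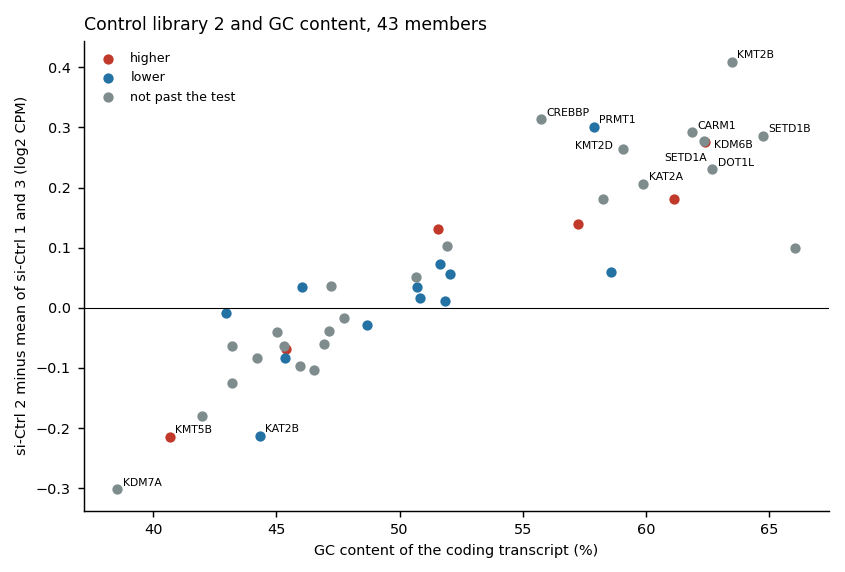
Deviation of control library 2 from the other controls against GC content. The x axis is the GC content of the coding transcript (%), the y axis the log2 CPM of si-Ctrl 2 minus the mean of si-Ctrl 1 and 3, each point is 1 of 43 enzymes, and colours give the call in the test of si-CHAF1A against si-Ctrl. Points with at least 55% GC all lie above 0, and KMT2B is the highest at 0.41.

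All 43 enzymes passed the filter on low counts, with at least 123 counts in each library. In si-CHAF1A, 6 enzymes were higher (KDM2A, KDM2B, KDM4B, KDM6B, KMT5B and KAT6A), 12 were lower (KMT5A, KDM5A, KAT2B, NSD2, PRMT1, KDM4A, SETD3, KAT5, KDM1B, KAT7, EP300 and KDM1A) and 25 did not pass the test. Among all tested genes 37.8% passed, 18.5% higher and 19.3% lower, against 41.9% of the enzymes, so in this main test the share of enzymes called was near the background. The 3 libraries of a group did not overlap with those of the other for 25 enzymes, with si-CHAF1A above in 11 and below in 14, where 48.2% of all tested genes showed no overlap. Without si-Ctrl 2, 11 enzymes were higher and 15 lower, with 43.8% of 16503 genes called (21.3% higher, 22.5% lower). With a trend on transcript GC content removed from each library as an offset, a setting chosen after seeing the data, 9 enzymes were higher and 15 lower, and 46.0% of all genes were called. In both of these settings the share of the 43 enzymes called was larger than that of all genes. The share among genes at the level of the enzymes was not computed for them. With total counts and no scaling factor, which moves the median of all genes up by 0.05 on the log2 scale, 9 enzymes were higher and 7 lower. All-gene counts were then 3447 higher and 2455 lower.

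The changes of the enzymes were small. The median size of the log2 fold change, regardless of sign, was 0.17 over the enzymes, 0.26 over all tested genes and 0.22 over the 9898 tested genes at or above the level of the lowest enzyme, of which 47.5% were called. The median with sign was -0.04. Just 1 enzyme, KMT5A, changed at least 2-fold, and KMT5A and KDM2B were the 2 past 1.5-fold. The 25 enzymes that did not pass had log2 fold changes of -0.17 to 0.21, with 95% intervals that lay within -0.41 and 0.41. Calls held in all 13 alternative settings for 4 higher enzymes (KDM2B, KDM6B, KDM2A and KDM4B) and 7 lower ones (KMT5A, KDM5A, KAT2B, NSD2, PRMT1, KDM4A and SETD3).

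**Figure D2:**
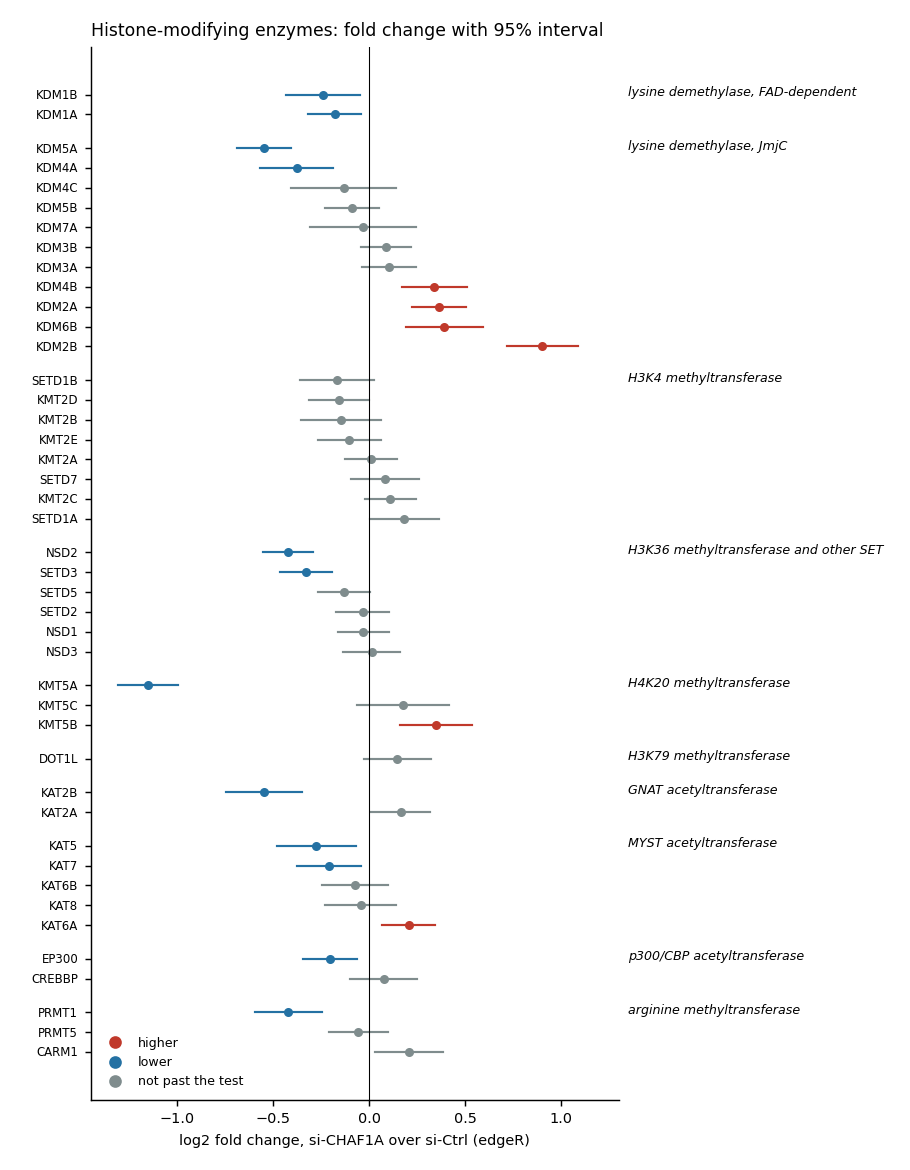
Fold change of each of 43 enzymes, grouped by class. The x axis is the log2 fold change of si-CHAF1A over si-Ctrl from edgeR, lines are 95% intervals that are not adjusted for multiple testing, and colours give the call after adjustment over all genes. KMT5A at -1.15 and KDM2B at 0.90 lie farthest from 0, and most enzymes lie within 0.5 of it.

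A pair of 7-base words, GAAGAGA and AAGAGAA, had been taken from earlier results on these same libraries, where 3' UTRs of genes that fell held them more often. The sites in enzymes that changed are shown so that the letters can be read beside the values. Each is given with 10 bases on either side, the word in capitals, from the annotated 3' UTR of 1 transcript per gene (GENCODE 29, GRCh38), read 5′ to 3′ along the transcript.
KMT5A chr12:123408597-123408623 (plus strand): gctttttgtaGAAGAGAttgagaatgg
KDM5A chr12:284624-284650 (minus strand): caaaaaaaaaAAGAGAAgaagatgacg
KAT2B chr3:20152609-20152635 (plus strand): atgatgtattGAAGAGActtgtaaatg
KAT7 chr17:49828686-49828712 (plus strand): tcaagtgaagGAAGAGAtgttccctct
KDM2A chr11:67256658-67256684 (plus strand): gagccactgaGAAGAGAgacgccaact
KMT5A, KDM5A, KAT2B and KAT7 were lower in si-CHAF1A, and KDM2A was higher. One further enzyme that was higher, KAT6A, held a word as well. Of the 41 enzymes whose transcript has an annotated 3' UTR, the words were in 4 of 12 that were lower, 2 of 6 that were higher and 8 of 23 that did not pass the test. Over all genes they were in 37.0% of 2870 lower genes, 24.5% of 2594 higher genes and 26.5% of 7217 genes that did not pass. A match is a run of letters in 1 transcript and not a known site of any siRNA.

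Levels spanned a wide range. Per kilobase of transcript, PRMT1 was highest at 106 CPM per kb in si-CHAF1A and 142 CPM per kb in si-Ctrl. SETD3 came next (44.2 CPM per kb in si-CHAF1A and 55.5 in si-Ctrl) in both groups. Below them, KAT2A (31.2 in si-CHAF1A and 27.8 in si-Ctrl) stood above NSD2 (29.8 in si-CHAF1A and 39.97 in si-Ctrl) in si-CHAF1A and under it in si-Ctrl. These values divide gene counts by the length of 1 transcript, 3109 bases for KAT2A and 7827 for NSD2. All annotated exons span 3769 bases in KAT2A and 19776 in NSD2, so the order of enzymes within a group can depend on the length taken. The lowest were KDM7A (1.02 in si-CHAF1A and 1.05 in si-Ctrl) and KDM4C (1.71 in si-CHAF1A and 1.88 in si-Ctrl). The median over the 43 in si-Ctrl was 9.71 CPM per kb.

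The H4K20 methyltransferases held the largest fall. KMT5A (ENSG00000183955, chromosome 12, 123383773 to 123409358; GRCh38, GENCODE 29), which writes the monomethyl mark on H4K20 and is needed for chromosome condensation and genome integrity, stood at 32.8, 33.3 and 30.3 CPM in si-CHAF1A and 70.3, 71.8 and 72.1 CPM in si-Ctrl. The gap between the groups was wider than the spread within either. The mean ± SD was 32.1 ± 1.61 CPM in si-CHAF1A and 71.4 ± 0.950 CPM in si-Ctrl (n = 3 each), a 2.22-fold fall. In edgeR this was a log2 fold change of -1.15 with an SE of 0.0737 (adjusted p = 1.03e-08). KMT5B, which turns the monomethyl mark into the di- and trimethyl forms, rose 1.27-fold, with 57.8, 68.1 and 62.5 CPM in si-CHAF1A and 54.9, 44.7 and 48.9 CPM in si-Ctrl (adjusted p = 0.00554). That call was lost without si-CHAF1A 2 (log2 fold change 0.29, adjusted p = 0.0516; adjusted p of 5.12e-07 to 0.0516 over the alternatives). KMT5C, its paralog, was at 11.96 ± 0.512 CPM in si-CHAF1A and 10.6 ± 0.591 CPM in si-Ctrl and did not pass (log2 fold change 0.18, 95% interval -0.06 to 0.41).

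KMT5A protein and activity are known to change over the cell cycle. The 10 G2 and mitosis markers were all lower in si-CHAF1A (median log2 fold change -0.93), and their summed level was 1202, 1269 and 1311 CPM in si-CHAF1A, against 2453, 2453 and 2443 CPM in si-Ctrl. AURKA (log2 fold change -1.46), PLK1 (-1.27), TPX2 (-1.08) and MKI67 (-0.95) had the smallest adjusted p among them. The part of a shift in cell cycle phases in the lower KMT5A level was not tested. In RNA from whole cultures, fewer cells that carry a transcript and less of it per cell cannot be told apart.

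Among the 11 JmjC demethylases, which use oxygen and 2-oxoglutarate, 4 were higher, 2 lower and 5 did not pass. Of all tested genes 18.5% were higher and 19.3% lower. KDM2B (ENSG00000089094, chromosome 12, 121429097 to 121581015), which removes methyl groups from H3K36 and brings a variant Polycomb complex to unmethylated CpG islands, had the largest rise of the 43. It stood at 39.4, 40.9 and 40.8 CPM in si-CHAF1A and 21.9, 22.99 and 19.9 CPM in si-Ctrl, with no overlap. The mean ± SD was 40.4 ± 0.890 CPM in si-CHAF1A and 21.6 ± 1.57 CPM in si-Ctrl (n = 3 each), a 1.87-fold rise with a log2 fold change of 0.90 and an SE of 0.0860 (edgeR adjusted p = 8.95e-07). Its paralog KDM2A, also an H3K36 demethylase with a CpG-binding domain, was at 106, 104 and 102 CPM in si-CHAF1A and 78.9, 85.9 and 77.9 CPM in si-Ctrl (1.29-fold higher, edgeR adjusted p = 0.000509).

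KDM6B, which removes H3K27 methylation, read 41.3, 37.96 and 41.7 CPM in si-CHAF1A and 27.2, 34.7 and 30.1 CPM in si-Ctrl (1.31-fold higher, edgeR adjusted p = 0.00390). The KDM4 enzymes act on trimethylated H3K9 and H3K36, and their members moved in opposite directions. KDM4B was higher, with 73.3, 67.2 and 67.7 CPM in si-CHAF1A and 55.8, 59.4 and 49.2 CPM in si-Ctrl (log2 fold change 0.34, edgeR adjusted p = 0.00350). KDM4A was lower, with 20.7, 19.8 and 19.7 CPM in si-CHAF1A and 27.2, 26.5 and 24.5 CPM in si-Ctrl (log2 fold change -0.38, edgeR adjusted p = 0.00342). In each of these 3 genes the groups did not overlap, which was so for 48.2% of all tested genes. KDM4C, the least abundant of the 3 KDM4 genes per kilobase, did not pass (log2 fold change -0.13, 95% interval -0.41 to 0.14).

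KDM5A (ENSG00000073614, chromosome 12, 280129 to 389454), which removes di- and trimethylation from H3K4 and was first found as a partner of the retinoblastoma protein, fell 1.46-fold. Its libraries read 62.7, 65.98 and 67.3 CPM in si-CHAF1A and 96.9, 95.1 and 94.4 CPM in si-Ctrl, 2 narrow and separate ranges (log2 fold change -0.55 with an SE of 0.0657, edgeR adjusted p = 9.75e-06). KDM5B, with the same substrate, overlapped between groups at 97.6, 101 and 102 CPM in si-CHAF1A and 113, 102 and 106 CPM in si-Ctrl and did not pass (log2 fold change -0.09, adjusted p = 0.316). It passed as lower without si-Ctrl 2 (log2 fold change -0.13, adjusted p = 0.0359; adjusted p of 0.0359 to 0.698 over the alternatives). KDM3A and KDM3B, H3K9 demethylases, had log2 fold changes of 0.10 and 0.09 and did not pass. Both passed as higher with the GC offset (0.17 and 0.11), with adjusted p of 0.00592 to 0.527 and 0.0274 to 0.644 over the alternatives. KDM7A, which acts on dimethylated H3K9 and H3K27, had -0.03 (95% interval -0.31 to 0.24).

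Both FAD-dependent demethylases were slightly lower, where 19.3% of all tested genes were lower. KDM1A (LSD1), which removes mono- and dimethylation from H3K4 in the CoREST repressor, stood at 68.96, 67.6 and 67.6 CPM in si-CHAF1A and 77.97, 77.7 and 75.6 CPM in si-Ctrl (log2 fold change -0.18, edgeR adjusted p = 0.0395). KDM1B (LSD2), with the same substrate, stood at 24.8, 23.7 and 27.6 CPM in si-CHAF1A and 31.6, 29.6 and 28.8 CPM in si-Ctrl (log2 fold change -0.24, edgeR adjusted p = 0.0472). The groups did not overlap in either gene, and they did not in 48.2% of all tested genes. KDM1A kept its call in 4 of the 13 alternatives and KDM1B in 5, with adjusted p of 0.00805 to 0.147 and 0.0157 to 0.182. Leaving out any 1 library other than si-Ctrl 2 ended the KDM1A call, and leaving out si-CHAF1A 1, si-CHAF1A 2, si-Ctrl 1 or si-Ctrl 3 ended that of KDM1B.

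**Figure D3:**
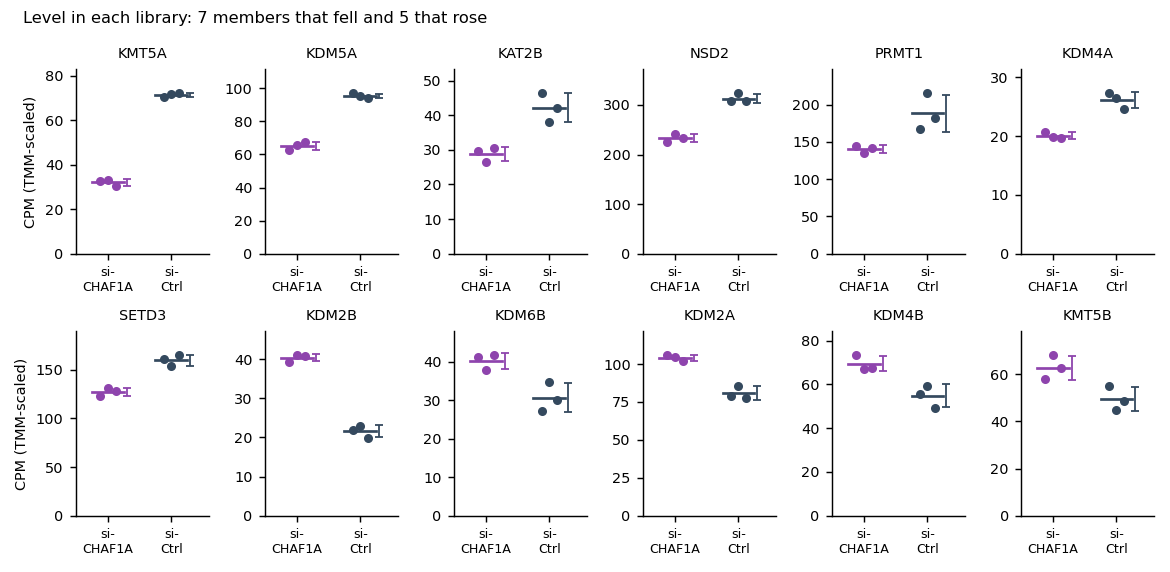
Level of 12 enzymes in each library. The y axis of each panel is the TMM-scaled CPM and starts at 0, points are single libraries with si-CHAF1A on the left and si-Ctrl on the right, the wide line is the mean and the bracket the SD (n = 3). Shown are 7 of the 12 lower enzymes and then 5 of the 6 higher ones. KAT5, KDM1B, KAT7, EP300, KDM1A and KAT6A also passed the test and are not drawn. The groups do not overlap in any panel, and they did not in 48.2% of all tested genes.

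Of all tested genes 37.8% passed edgeR's test, and none of the 8 enzymes grouped here as H3K4 methyltransferases did. In this class 2 had an unadjusted p under 0.05 (SETD1A and KMT2D), and 0 passed with DESeq2 and 0 with limma-voom. Their log2 fold changes ran from -0.17 (SETD1B) to 0.18 (SETD1A), and their 95% intervals lay within -0.36 and 0.36. The group holds KMT2A and KMT2B, which act at promoters, KMT2C and KMT2D, which monomethylate enhancers, SETD1A and SETD1B, which write most of the trimethyl mark, the related KMT2E, and SETD7, which also methylates proteins other than histones. In KMT2B, KMT2D, SETD1A and SETD1B, whose transcripts are rich in GC, si-Ctrl 2 was the highest control. KMT2B read 64.3, 64.7 and 65.5 CPM in si-CHAF1A and 67.5, 85.7 and 61.7 CPM in si-Ctrl, and KMT2D read 247, 243 and 236 CPM in si-CHAF1A and 254, 304 and 252 CPM in si-Ctrl. In both, the second control lies well above the rest. SETD1A read 72.3, 69.3 and 69.1 CPM in si-CHAF1A and 60.5, 69.9 and 54.99 CPM in si-Ctrl, and SETD1B read 36.4, 38.8 and 36.3 CPM in si-CHAF1A and 39.1, 47.5 and 38.8 CPM in si-Ctrl. In these 2 genes the groups overlapped.

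Calls in this class changed between settings. Without si-Ctrl 2, 43.8% of all genes passed edgeR's test. Of the 8, 2 did so, SETD1A higher (log2 fold change 0.28, adjusted p = 0.000194) and KMT2E lower (-0.15, adjusted p = 0.0359). The GC offset takes a trend out of every library, not out of si-Ctrl 2 alone. With it 46.0% of all genes passed, and 4 of the 8, 3 lower and 1 higher. These were KMT2B (log2 fold change -0.27 with the offset and 0.00 without si-Ctrl 2), KMT2D (-0.24 and -0.07), SETD1B (-0.30 and -0.07) and KMT2C, higher (0.18 and 0.09). The enzymes called under the 2 settings were different ones. In the main test KMT2B was at -0.15, KMT2D at -0.16, SETD1B at -0.17 and KMT2C at 0.11, each between its values under the 2 settings. Adjusted p over the 13 alternatives ran from 0.000346 to 0.998 for KMT2B, 9.54e-06 to 0.286 for KMT2D, 0.000344 to 0.469 for SETD1B, 0.00157 to 0.464 for KMT2C, 0.000194 to 0.419 for SETD1A and 0.0359 to 0.759 for KMT2E.

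Of the 6 H3K36 and other SET methyltransferases, 2 were lower and 4 did not pass, where 19.3% of all tested genes were lower. NSD2 (ENSG00000109685, chromosome 4, 1871424 to 1982207), which dimethylates H3K36 and is overactive in some myelomas, stood at 225, 241 and 234 CPM in si-CHAF1A and 308, 323 and 307 CPM in si-Ctrl. It fell 1.34-fold (log2 fold change -0.42 with an SE of 0.0605, edgeR adjusted p = 5.32e-05), with a gap between the groups. Its paralogs NSD1 and NSD3 were at log2 fold changes of -0.03 (95% interval -0.17 to 0.10) and 0.01 (-0.14 to 0.16). SETD3, best known as the methyltransferase of an actin histidine, read 123, 131 and 128 CPM in si-CHAF1A and 161, 154 and 165 CPM in si-Ctrl (1.26-fold lower, edgeR adjusted p = 0.000787). SETD2, the main H3K36 trimethylase, did not pass (log2 fold change -0.04, 95% interval -0.17 to 0.10). SETD5 was at -0.13 (adjusted p = 0.113) and passed as lower without si-Ctrl 2 (-0.14, adjusted p = 0.0109; adjusted p of 0.0109 to 0.350 over the alternatives).

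DOT1L, the H3K79 methyltransferase, read 95.6, 98.9 and 87.6 CPM in si-CHAF1A and 84.8, 94.1 and 75.9 CPM in si-Ctrl, overlapping groups (log2 fold change 0.15, adjusted p = 0.181). It passed as higher without si-Ctrl 2 (0.22, adjusted p = 0.00141; adjusted p of 0.00141 to 0.709 over the alternatives).

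Among the 9 acetyltransferases 1 was higher, 4 were lower and 4 did not pass, beside 18.5% higher and 19.3% lower of all tested genes. KAT2B (PCAF; ENSG00000114166, chromosome 3, 20040023 to 20154404), which acetylates H3K9 and also p53, stood at 29.7, 26.4 and 30.4 CPM in si-CHAF1A and 46.3, 38.2 and 42.2 CPM in si-Ctrl. All its si-CHAF1A libraries lay below all si-Ctrl ones, and the fall was 1.46-fold (log2 fold change -0.55 with an SE of 0.0926, edgeR adjusted p = 0.000238). Its paralog KAT2A (GCN5), the acetyltransferase of SAGA and ATAC, read 97.3, 97.7 and 95.8 CPM in si-CHAF1A and 81.1, 94.8 and 83.4 CPM in si-Ctrl. That was a log2 fold change of 0.16 that did not pass (adjusted p = 0.0868) and passed as higher without si-Ctrl 2 (0.23, adjusted p = 0.000298; adjusted p of 0.000298 to 0.294 over the alternatives).

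The 5 MYST enzymes split as 1 higher, 2 lower and 2 not past the test, which 37.8% of all tested genes passed. KAT6A (MOZ), an H3K23 acetyltransferase, was at 104, 105 and 101 CPM in si-CHAF1A and 88.8, 86.96 and 93.7 CPM in si-Ctrl (log2 fold change 0.21, edgeR adjusted p = 0.0208). KAT7 (HBO1), which acetylates H3K14 and H4 and works at replication origins, was at 49.04, 49.9 and 58.5 CPM in si-CHAF1A and 60.4, 61.7 and 60.04 CPM in si-Ctrl (log2 fold change -0.21, edgeR adjusted p = 0.0472). KAT5 (TIP60), the H4 and H2A acetyltransferase of DNA repair, was at 14.7, 15.5 and 14.4 CPM in si-CHAF1A and 17.8, 18.5 and 17.7 CPM in si-Ctrl (log2 fold change -0.28, edgeR adjusted p = 0.0332). The groups did not overlap in these 3 genes, though si-CHAF1A 3 of KAT7 lies close to the controls. Of all tested genes 48.2% showed no overlap. KAT6B (MORF; log2 fold change -0.08) and KAT8 (MOF, the H4K16 acetyltransferase; -0.04) did not pass.

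EP300, which with its paralog CREBBP acetylates H3K27 at enhancers, read 76.9, 81.3 and 80.8 CPM in si-CHAF1A and 92.6, 94.3 and 88.8 CPM in si-Ctrl and was lower (log2 fold change -0.21, edgeR adjusted p = 0.0214). CREBBP overlapped, at 151, 141 and 149 CPM in si-CHAF1A and 129, 160.1 and 128 CPM in si-Ctrl (log2 fold change 0.08, adjusted p = 0.509). Without the high si-Ctrl 2 it passed as higher (0.18, adjusted p = 0.00140; adjusted p of 0.00140 to 0.924 over the alternatives). The calls of KAT6A and EP300 held in 7 of 13 alternatives, that of KAT7 in 6 and that of KAT5 in 4. Without si-CHAF1A 1, without si-CHAF1A 2 and without si-Ctrl 1 each of these 4 calls was lost. Leaving out si-CHAF1A 3 ended those of KAT5, KAT6A and EP300, and leaving out si-Ctrl 3 those of KAT5 and KAT7. Their adjusted p over the alternatives ran over 1.58e-05 to 0.0879 (KAT6A), 0.00117 to 0.106 (EP300), 0.0120 to 0.201 (KAT7) and 0.00238 to 0.115 (KAT5).

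Of the 3 arginine methyltransferases, PRMT1, which places asymmetric dimethylation on H4R3 and many RNA-binding proteins, was lower. It read 145, 135 and 141 CPM in si-CHAF1A and 168, 215 and 182 CPM in si-Ctrl, where the second control was again the highest (1.34-fold lower, log2 fold change -0.42 with an SE of 0.0822, edgeR adjusted p = 0.000801). Without that library the log2 fold change was -0.32 (adjusted p = 1.41e-07; adjusted p of 1.96e-10 to 0.0119 over the alternatives). PRMT5, which places symmetric dimethylation, did not pass (50.2, 49.8 and 47.1 CPM in si-CHAF1A, 49.4, 53.4 and 50.1 CPM in si-Ctrl; 95% interval -0.21 to 0.10). CARM1, which methylates H3R17 and coactivators, read 101, 92.1 and 93.3 CPM in si-CHAF1A and 76.3, 93.9 and 77.1 CPM in si-Ctrl (log2 fold change 0.21, adjusted p = 0.0596). It passed as higher without si-Ctrl 2 (0.31, adjusted p = 7.14e-06; adjusted p of 7.14e-06 to 0.226 over the alternatives).

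The balance within families was compared in 16 pairs of related enzymes, as the log2 ratio of their CPM within each library. CPM is not scaled to length, so the change of the ratio between groups is read and not the ratio itself. In 11 pairs the si-CHAF1A and si-Ctrl libraries did not overlap. Single genes showed no overlap in 48.2% of all tested, and the share among other pairs of genes was not computed, so the count describes these pairs and is no result about them. KMT5A over KMT5B moved most, with log2 ratios of -0.82, -1.03 and -1.05 in si-CHAF1A and 0.36, 0.68 and 0.56 in si-Ctrl, a difference of -1.50. KDM4A over KDM4B differed by -0.72 (-1.83, -1.77 and -1.78 in si-CHAF1A, -1.04, -1.17 and -1.003 in si-Ctrl). KAT2A over KAT2B went the other way, by 0.72 (1.71, 1.89 and 1.66 in si-CHAF1A, 0.81, 1.31 and 0.98 in si-Ctrl). In the KMT5 and KDM4 pairs the gap between the groups exceeded the range within either, and in the KAT2 pair the si-Ctrl libraries spread more widely.

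The other 8 separated pairs differed by -0.54 (KDM2A over KDM2B), -0.46 (KDM5A over KDM5B), -0.44 (NSD2 over NSD3), -0.29 (EP300 over CREBBP), 0.26 (KMT2C over KMT2D), 0.28 (KAT6A over KAT6B), 0.35 (SETD1A over SETD1B) and 0.39 (NSD1 over NSD2). Both NSD pairs share NSD2. For each of the 11 the exact permutation test, two-sided, gave p = 0.1, the smallest that 3 against 3 libraries allow, and 0.145 after Benjamini-Hochberg adjustment over the 16 pairs, so none passed. KDM1A over KDM1B, KDM3A over KDM3B, KDM4A over KDM4C, KMT2A over KMT2B and KMT5B over KMT5C overlapped between the groups. Without si-Ctrl 2 the differences of the 3 widest pairs were -1.42, -0.77 and 0.86. The difference of KMT2C over KMT2D was 0.26 with all libraries and 0.16 without si-Ctrl 2.

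**Figure D4:**
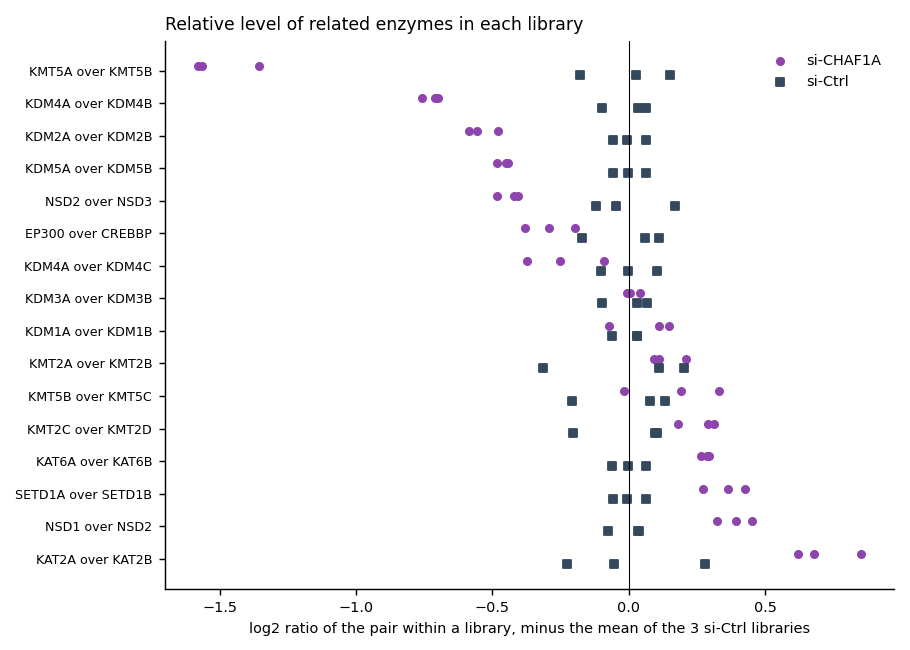
Relative level of 16 pairs of related enzymes in each library. The x axis is the log2 ratio of CPM of the first over the second gene in a library, minus the mean of that ratio over the 3 si-Ctrl libraries; circles are si-CHAF1A libraries and squares si-Ctrl libraries. KMT5A over KMT5B lies farthest to the left and KAT2A over KAT2B farthest to the right, and 5 pairs overlap between the groups.

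Other enzymes of the same families were counted beside the 43. Of 34, 31 were tested, 2 were higher and 8 lower (median log2 fold change -0.06), a share of 32.3% beside 37.8% of all tested genes. Without si-Ctrl 2, 3 were higher and 9 lower, where 21.3% of all tested genes were higher and 22.5% lower. The 4 with the smallest adjusted p were all lower. They were ASH1L, an H3K36 methyltransferase (83.5 ± 5.23 CPM in si-CHAF1A and 134 ± 7.22 CPM in si-Ctrl, log2 fold change -0.68, edgeR adjusted p = 2.54e-06), PRMT3, which methylates a ribosomal protein (-0.51, adjusted p = 0.000172), GTF3C4, a subunit of transcription factor IIIC (-0.38, adjusted p = 0.000378), and JMJD6, a JmjC hydroxylase (-0.38, adjusted p = 0.000865). The 2 higher ones, named after their values were seen, were KDM5C (0.32, adjusted p = 0.00385) and KDM6A (0.27, adjusted p = 0.0117), demethylases of H3K4 and H3K27. Without si-CHAF1A 3 the count of higher enzymes was 1.

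Most of these enzymes work in complexes, and 82 partners in 8 lists were counted. Of 81 tested, 8 were higher and 22 lower (37.0% called, median log2 fold change -0.08), close to the 37.8% of all genes. The counts in single lists below are to be read beside 18.5% higher and 19.3% lower among all tested genes. Without si-Ctrl 2, 13 of all the partners were higher and 25 lower, where 21.3% of all tested genes were higher and 22.5% lower. Of 13 COMPASS and MLL partners, which serve the H3K4 methyltransferases, 6 were lower and 7 did not pass. BOD1L1, which binds SETD1A, read 69.8, 79.4 and 79.1 CPM in si-CHAF1A and 122, 118 and 124 CPM in si-Ctrl (log2 fold change -0.67, edgeR adjusted p = 2.55e-06). PAGR1, of the KMT2C and KMT2D complexes, was at 2.56, 3.04 and 3.48 CPM in si-CHAF1A and 5.76, 7.23 and 8.26 CPM in si-Ctrl (-1.23, edgeR adjusted p = 9.14e-05). PSIP1, which tethers menin and KMT2A to chromatin, was at -0.47 and HCFC1, a subunit shared by several complexes, at -0.37.

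Of the 15 TIP60/NuA4 partners 6 were lower and 9 did not pass. That is 40% called, near the 37.8% of all tested genes. KAT5 itself was lower, a call that held in 4 of 13 alternatives. VPS72, which binds the histone variant H2A.Z and also belongs to SRCAP, read 15.5, 11.9 and 14.8 CPM in si-CHAF1A and 32.7, 37.3 and 34.5 CPM in si-Ctrl, a 2.49-fold fall (log2 fold change -1.31 with an SE of 0.11, edgeR adjusted p = 1.6e-07). RUVBL1, an ATPase shared with INO80 and other complexes, fell by 0.64 on the log2 scale, ACTL6A, an actin-related subunit shared with SWI/SNF, by 0.51, and the reader ING3 by 0.75. In the MOZ/MORF and HBO1 list, 3 of 8 were higher and 3 lower. The lower 3 were the HBO1 scaffolds JADE1 (-0.44), JADE2 (-0.61) and JADE3 (-0.61). The higher 3 were BRPF1, the scaffold of KAT6A (0.38), and, named after their values were seen, ING4 (0.45) and BRPF3 (0.34).

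The SAGA and ATAC list held 2 higher and 3 lower of 19. TAF6L (log2 fold change -0.58), DR1 (-0.34) and, named after its value was seen, ENY2 (-0.21) were lower, and the deubiquitinase USP22 (0.20) and SUPT3H (0.46) were higher. In the LSD1-CoREST list of 9, the low-level RCOR2 (2.73, 3.04 and 2.41 CPM in si-CHAF1A, 1.22, 1.52 and 0.516 CPM in si-Ctrl) was higher and the scaffold RCOR1 (-0.29) was lower. Of 5 tested DOT1L and super elongation partners, AFF4, the scaffold, was higher (326 ± 8.04 CPM in si-CHAF1A and 216 ± 17.1 CPM in si-Ctrl, edgeR adjusted p = 5.75e-06) and MLLT3, a DOT1L partner, was lower (20.4 ± 0.567 CPM in si-CHAF1A and 35.6 ± 4.04 CPM in si-Ctrl, edgeR adjusted p = 9.68e-06). MSL1, the scaffold of a KAT8 complex, was the 1 lower gene of 8 (-0.42), and WDR77, the PRMT5 partner, the 1 lower gene of 4 (-0.34).

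**Figure D5:**
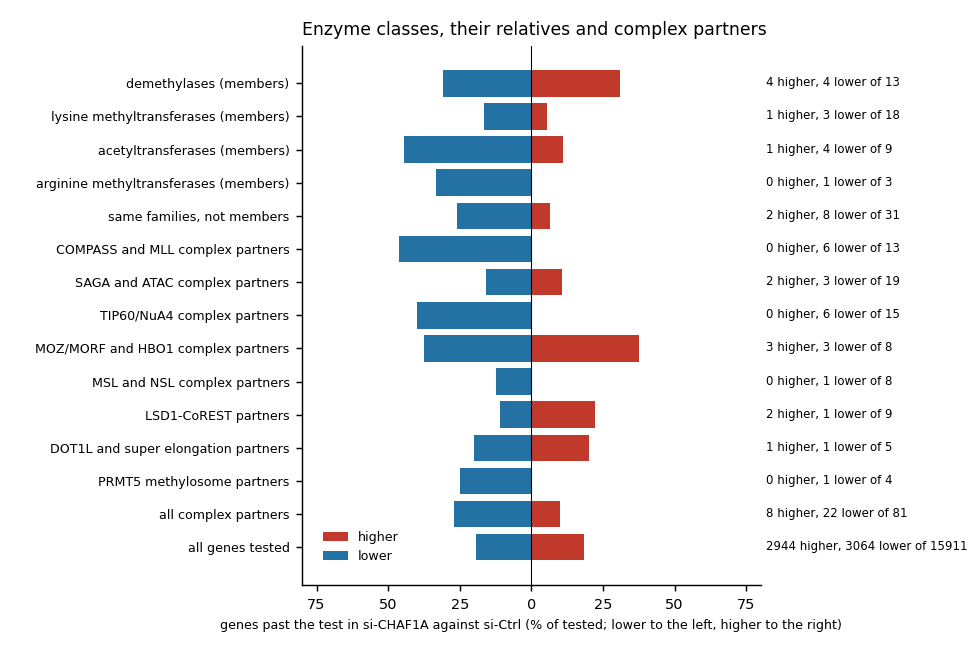
Share of genes past the test in each enzyme class and partner list. Bars to the right give the percent of tested genes that were higher in si-CHAF1A, bars to the left the percent that were lower, with counts at the right edge and all tested genes at the bottom. The H3K4 complex (COMPASS and MLL) and TIP60/NuA4 partners have 6 lower genes each and no bar to the right. The MSL and NSL partners, the PRMT5 methylosome partners and the arginine methyltransferases have no bar to the right either. The COMPASS and MLL list has 46.2% and the TIP60/NuA4 list 40% of genes called, beside 37.8% of all tested genes.

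Promoters were read from RefSeq (GRCh38.p14) as the 250 bases before the start nearest to the annotated gene start, and 38 of 43 enzymes matched. KAT6A, KAT8, NSD3, DOT1L and SETD1B had no entry. In 5 enzymes the start read lies more than 1000 bases from the annotated gene start, by 50480 bases in SETD7, 37110 in KDM4C and 1020 to 1485 in KMT2D, KDM5B and PRMT1, so these windows do not lie at the annotated start. The median number of CpG dinucleotides was 23.5 in the enzymes and 21 over 11258 tested genes, and the median GC content was 68.4% and 64.8%. By call, the median CpG number was 36 in 5 higher enzymes, 24.5 in 12 lower ones and 23 in 21 that did not pass. Within the higher ones it ran from 1 (KDM6B) to 40 (KDM2A). The letters CCAAT, on either strand, were in 12 of the 38 and in 34.6% of the 11258 promoters. Over the 33 enzymes and 9740 genes whose start lies within 1000 bases, the median CpG number was 25 in the enzymes and 21 in all genes, and CCAAT was in 11 of the 33 and in 34.9% of the genes. By call, the median was then 36 CpG in 5 higher, 26 in 11 lower and 24 in 17 enzymes that did not pass. The promoters of the largest rise and the largest fall are printed for comparison, with each CpG in capitals; KDM2B holds 13 and KMT5A holds 26.
KDM2B chr12:121581024-121581273 (minus strand): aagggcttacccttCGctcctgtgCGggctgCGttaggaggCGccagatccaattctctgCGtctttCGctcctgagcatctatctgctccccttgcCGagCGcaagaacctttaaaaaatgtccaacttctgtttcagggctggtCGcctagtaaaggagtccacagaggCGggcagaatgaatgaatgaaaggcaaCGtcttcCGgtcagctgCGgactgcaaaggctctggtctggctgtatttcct
KMT5A chr12:123383882-123384131 (plus strand): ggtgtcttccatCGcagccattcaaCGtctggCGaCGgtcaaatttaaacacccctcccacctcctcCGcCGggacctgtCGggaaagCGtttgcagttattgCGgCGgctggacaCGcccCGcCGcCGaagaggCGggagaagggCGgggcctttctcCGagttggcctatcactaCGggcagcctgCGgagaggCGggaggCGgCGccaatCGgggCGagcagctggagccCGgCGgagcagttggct
The KMT5A start used lies 359 bases inside the annotated gene start, and that of KDM2B 8 bases away from it. Both windows hold CCAAT. Across the 38 promoters, CpG number and CCAAT were read as descriptions and no test was made.

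Reads of overlapping genes are a limit of these values, since the libraries are described as strand-specific but how the counting treated strand is not stated. Exons of 21 of the 43 enzymes overlap those of another gene. RNF34, which overlaps KDM2B on the other strand, was at 35.4 ± 2.58 CPM in si-CHAF1A and 41.6 ± 4.04 CPM in si-Ctrl and did not pass (log2 fold change -0.23, adjusted p = 0.0532). CCDC77, opposite KDM5A, was at 6.30 ± 0.417 CPM in si-CHAF1A and 8.05 ± 0.584 CPM in si-Ctrl (-0.35, adjusted p = 0.0537). RNASEH2C, opposite KAT5, was at 15.9 ± 0.867 CPM in si-CHAF1A and 19.1 ± 2.02 CPM in si-Ctrl (-0.27, adjusted p = 0.0553). These 3 had the smallest adjusted p among the tested neighbours of the 18 called enzymes. Beside an enzyme that did not pass, DDHD2, opposite NSD3 and named after its value was seen, was higher. It was at 74.1 ± 2.54 CPM in si-CHAF1A and 59.3 ± 6.19 CPM in si-Ctrl (log2 fold change 0.32, edgeR adjusted p = 0.00508). The part of DDHD2 reads in the NSD3 values was not tested.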

How the data were processed

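RNA from 6 cultures of RBE cells, 3 per group, was sequenced with reads of 150 bp. The authors deposited raw gene-level read counts as 1 table. The submitters' processing notes name fastp 0.20.1, HISAT2 2.1.0, SAMtools 1.9, featureCounts 2.0.1, StringTie 2.1.4 and build hg38, without roles or settings. Columns named NC were read as the control siRNA. The design text calls replicates biological and says no more, so p-values reflect only how these samples vary, which may be technical. No 2 libraries of a group were duplicates (chi-square per degree of freedom 2.30 to 13.7). Libraries with the same number did not vary together.

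From the deposited counts, genes were filtered with filterByExpr (minimum count 10, minimum total 15) and tested with edgeR 4.0.16 (R 4.3.3, robust quasi-likelihood, TMM, no covariate), with Benjamini-Hochberg adjustment at 0.05 over 15911 genes; a fold change is si-CHAF1A over si-Ctrl, and its SE is its size over the square root of F. The common biological coefficient of variation was 8.12%. The script was tested on simulated data. Of 63186 identifiers, 62665 had a symbol and 58173 were in GENCODE 29. GC content and lengths come from the GENCODE transcript with the longest coding sequence. DESeq2 1.42.0, limma-voom (3.58.1), other scalings, no filter, a replicate block, each library left out and a GC offset were alternatives.

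Members, lists and words were chosen with earlier results of these data known. Named are all members, CHAF1A, and up to 4 called genes per list with the smallest adjusted p. Markers of G2 and mitosis and of cell types could also be named. One gene that the rule takes is not reported here.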

Additional observations from a re-analysis of the deposited data

How the results depend on the processing

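No enzyme that passed in the main test changed sign in any of the 13 alternatives, and none that passed in an alternative had the opposite sign in the main test. Of 559 values, 496 kept their side of the threshold, 46 lost a call and 17 gained one. At least 1 count moved by more than 1.5 times in 8 of the 13 alternatives, and the count of lower enzymes did so in 5. With total counts and no scaling factor, 7 enzymes were lower and 9 higher, against 12 and 6 with TMM (SETD1A, KAT2A and CARM1 joined the higher ones), and 4 rather than 2 relatives of the same families were higher; that scaling shifts the median of all genes by 0.05 on the log2 scale, and all-gene counts became 3447 higher and 2455 lower. With the GC offset, chosen after seeing the data, 17 rather than 8 complex partners were higher and 30 rather than 22 were lower. The enzymes were then 9 higher and 15 lower. All-gene counts were 3679 higher and 3644 lower of 15911 with the offset, against 2944 and 3064 in the main test. Leaving out 1 library at a time gave 7 to 15 lower and 4 to 11 higher enzymes, 1 to 3 higher relatives, and 6 to 13 higher partners. The upper ends come from leaving out si-Ctrl 2 (for relatives also si-Ctrl 1); the cause was not tested. All-gene counts were then 2346 to 3519 higher and 2358 to 3709 lower.

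Replicate numbers are shared by the groups in the labels, but the deviations of same-numbered libraries correlated at -0.0859, -0.0643 and -0.00313, so the numbers were not taken as pairs. With a replicate block, 5 enzymes were higher and 7 lower, beside 2675 higher and 2723 lower among all genes. Calls lost in that fit were those of KDM1A, KDM1B, KAT5, KAT6A, KAT7 and EP300.

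With 3 libraries a group, the smallest change that passed was 1.13-fold (KDM1A), and the least abundant enzymes (KDM7A, KDM4C, KMT5C) had the widest intervals. Counts hold no information on protein, on enzyme activity or on the marks.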
